A study of Mus musculus with 21 samples.

Results

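Matricellular proteins are secreted into the extracellular matrix but do not build it: they bind cell-surface receptors, growth factors and matrix fibres and are known for their rise in healing wounds, fibrosis and tumour stroma. The CCN family shares this role through cysteine-rich modules, and its members Ctgf and Cyr61 are textbook targets of the YAP/TAZ and TEAD transcription factors and of TGF-β. Prrx1 is a homeodomain transcription factor of limb mesenchyme and of fibroblasts. The 10 genes described here are Postn, Tnc, Thbs1, Thbs2, Sparc and Spp1, and the CCN genes Ctgf, Cyr61, Nov and Wisp1 (POSTN, TNC, THBS1, THBS2, SPARC, SPP1, CTGF, CYR61, NOV and WISP1 in the tables). They were taken by name, under the older CCN symbols, from the 24447 genes that the count tables of the 3 fibroblast types share, and all 10 were listed and passed the filter on low counts in every comparison.

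RNA was sequenced from 21 cultures in 7 groups of 3. Mouse embryonic fibroblasts (MEF) from C57BL/6 embryos of embryonic day 10 to 13 were WT, mutant (mice labelled 129S-Prrx1tm1Jfm/Mmmh, in which LacZ is inserted into Prrx1) or sgPrrx1. Wound-healing fibroblasts came from the dorsal skin of C57BL/6 mice on day 10 after wounding, and MMTV-CAF, cancer-associated fibroblasts, came from breast tumours of MMTV-PyMT mice on the FVB/NJ background; each was WT or sgPrrx1. sgPrrx1 cells received a CRISPR/Cas9 guide RNA against Prrx1, and the labels name a non-targeting guide, sgNS, as their WT control. They do not say whether the WT MEF, which are the control of both MEF loss groups, carried it. All 7 groups, controls included, were immortalized with papillomavirus E6/E7 and grown in medium with 10% serum. The labels do not say that the 3 cultures of a group came from separate animals or lines, so the p-values below measure only the spread between these cultures, which may be technical, and cell type, strain, line and the effect of Prrx1 loss on 1 line cannot be told apart.

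Total counts per culture ranged from 69588655 to 134790440. Prrx1 transcript fell in every loss group but remained: it was at 12.1% of the WT level in mutant MEF, 66.0% in sgPrrx1 MEF (adjusted p = 0.0145), 44.0% in sgPrrx1 wound-healing fibroblasts and 47.8% in sgPrrx1 MMTV-CAF. The fall was smallest in sgPrrx1 MEF, where single cultures had 126, 94.9 and 140.5 CPM (counts scaled to one fixed library size) against 192, 166 and 184 in WT. The counts do not show whether protein was lost. Fibroblast markers were at 1 CPM or more in all 7 groups, with 1 exception: Thy1 was at 0.641 CPM in sgPrrx1 MMTV-CAF against 57.3 in WT. Their levels were not kept, however. In sgPrrx1 wound-healing fibroblasts Thy1 fell from 49.8 to 2.88 CPM and Col1a2 from 1873 to 107. Pdgfra fell from 142 CPM in WT MEF to 16.6 in sgPrrx1 and 19.2 in mutant MEF. Some markers rose, as given with their sums below.

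Promoter sequence was held for 6 of the 10 genes, in 9 windows of 250 bases that end at an annotated start. Below are the windows of Postn and Sparc, which were lower in all 4 comparisons with WT, and of Cyr61, which was lower in none (RefSeq, build GRCm38.p6). Postn has a window at an outer start (chr3:54359017-54359266, plus strand) and one at an inner start (chr3:54360857-54361106, plus strand). The Sparc window is at chr11:55420081-55420330, minus strand, and the Cyr61 window at chr3:145649986-145650235, minus strand. Capitals mark the TEAD core CATTCC and the TATA box TATAAA, with both strands searched, and each line ends at the base before the start.
Postn, outer start: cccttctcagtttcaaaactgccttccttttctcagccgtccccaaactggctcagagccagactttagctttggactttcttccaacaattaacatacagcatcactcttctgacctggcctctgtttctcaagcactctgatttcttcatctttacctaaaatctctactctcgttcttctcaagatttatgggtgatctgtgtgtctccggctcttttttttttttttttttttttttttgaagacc
Postn, inner start: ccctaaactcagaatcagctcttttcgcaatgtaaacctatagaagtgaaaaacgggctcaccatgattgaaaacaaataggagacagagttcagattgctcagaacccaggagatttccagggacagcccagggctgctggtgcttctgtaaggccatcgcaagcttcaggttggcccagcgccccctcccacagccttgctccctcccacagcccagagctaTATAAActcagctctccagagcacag
Sparc: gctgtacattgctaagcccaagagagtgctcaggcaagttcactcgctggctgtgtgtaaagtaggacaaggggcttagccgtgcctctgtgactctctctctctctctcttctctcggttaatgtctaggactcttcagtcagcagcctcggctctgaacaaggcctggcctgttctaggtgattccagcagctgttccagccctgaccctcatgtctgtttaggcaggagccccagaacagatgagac
Cyr61: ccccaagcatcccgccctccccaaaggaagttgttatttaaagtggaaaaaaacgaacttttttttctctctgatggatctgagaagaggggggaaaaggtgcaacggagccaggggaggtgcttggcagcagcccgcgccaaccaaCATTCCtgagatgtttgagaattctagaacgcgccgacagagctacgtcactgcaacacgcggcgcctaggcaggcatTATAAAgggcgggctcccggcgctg
In the Cyr61 window, CATTCC lay 103 to 98 bases before the start and TATAAA 25 to 20 bases before it. The inner Postn window held TATAAA 26 to 21 bases before the start, and the Sparc and outer Postn windows held neither motif. Among the 9 windows, CATTCC occurred in 1, that of Cyr61, against 12.6% of 32851 promoter windows of the same length, and TATAAA in 6 against 12.4%, where both Tnc windows overlap and hold the same TATAAA. Outside the Cyr61 and inner Postn windows, TATAAA lay further from the start. It was 126 to 121 bases before it in Thbs2, 211 to 206 in the outer Spp1 window, and 126 to 121 and 205 to 200 in the outer and inner Tnc windows. Only the exact string TATAAA was searched. The inner Tnc window also holds the variant TATATAA nearer its start, which was not counted. The homeodomain core TAATTA occurred in 1 of 9 windows, at the inner start of Spp1, against 4.84%, and the SMAD box CAGAC in 6 against 42.2%. The AP-1 site TGANTCA (6.75% of all windows) and the CArG box of SRF (1.47%) occurred in 0 of 9. The motifs share no bases in these windows, a match is a description of letters and not a binding site, and the windows of Ctgf, Thbs1, Nov and Wisp1 were not analysed here.

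Loss of Prrx1 was accompanied by lower transcript of most of the 10 genes, with Postn, Sparc and Wisp1 lower in all 4 comparisons with WT. The share of all genes that moved one way in all 4 comparisons was not computed. Genes named here or below as lower or higher in all 4 therefore cannot be set against it. Of 40 tests, 10 genes in 4 comparisons, 28 passed as lower, 8 as higher and 4 did not pass an adjusted p of 0.05 (edgeR's quasi-likelihood test, Benjamini-Hochberg over all genes tested). In mutant MEF 6 genes were lower and 3 higher, where 30.5% of all 13616 genes tested were lower and 29.4% higher (59.9% in either direction). In sgPrrx1 MEF 8 were lower and 0 higher against 22.8 and 20.3% of 13372 genes (43.1%), with Spp1 and Cyr61 not passing. This background rests on 5764 genes, and was 3830 without WT MEF replicate 2 and 3834 without sgPrrx1 MEF replicate 2, while 8 of the 10 genes passed either way. In sgPrrx1 wound-healing fibroblasts 6 were lower and 3 higher against 39.3 and 38.3% of 13939 genes (77.6%). In sgPrrx1 MMTV-CAF 8 were lower and 2 higher against 41.9 and 41.2% of 13903 genes (83.1%). The share of the 10 genes that passed in either direction was thus near the background in wound-healing fibroblasts and MMTV-CAF. In bulk RNA, fewer cells that express a gene and less RNA per cell cannot be told apart.

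The median gene of the 10 was lower than the median of all genes in each comparison. The median log2 fold change of the 10 genes was −0.91 in mutant MEF, −1.31 in sgPrrx1 MEF, −0.83 in sgPrrx1 wound-healing fibroblasts and −1.68 in sgPrrx1 MMTV-CAF, where the median of all genes tested lay between −0.00 and 0.01. A change of at least 2-fold together with the threshold was reached by 5 of the 10 genes in mutant MEF (24.1% of all genes), 7 in sgPrrx1 MEF (10.6%), 5 in sgPrrx1 wound-healing fibroblasts (15.6%) and 9 in sgPrrx1 MMTV-CAF (24.3%).

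**Figure D1:**
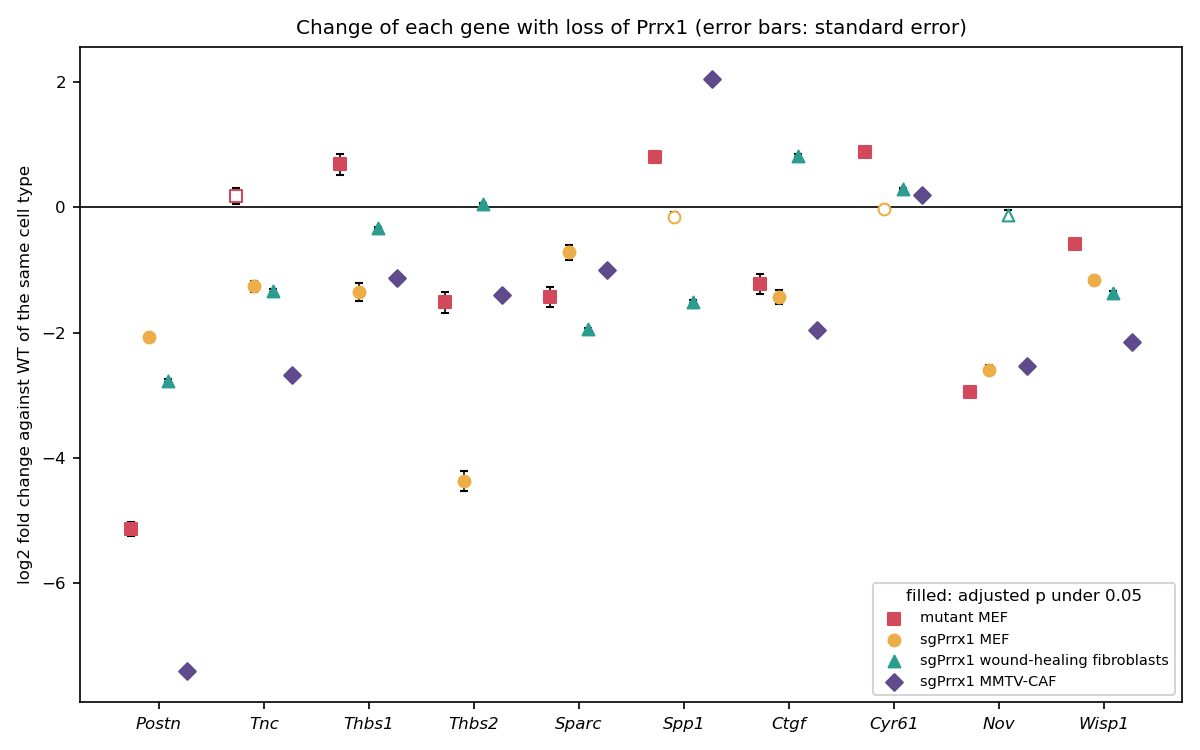
Log2 fold change of each of the 10 genes against WT of the same cell type in the 4 Prrx1-loss groups; bars are standard errors, filled symbols passed an adjusted p of 0.05 and open symbols did not. Postn, Sparc, Nov and Wisp1 lie below 0 in all 4 groups, though Nov did not pass in wound-healing fibroblasts. Cyr61 lies below 0 only in sgPrrx1 MEF, where it did not pass, and Thbs1, Thbs2, Spp1 and Ctgf passed on both sides of 0.

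Postn (chr3:54359267-54391041, positions throughout in GRCm38.p6), which encodes periostin, a protein of collagen-rich tissues that binds αv integrins, had the largest fall of the 10 genes in 3 of the 4 comparisons. WT MMTV-CAF had 1935, 1879 and 1947 CPM in replicates 1, 2 and 3, and sgPrrx1 MMTV-CAF 11.1, 11.9 and 11.6. WT MEF had 305, 321 and 293, mutant MEF 9.75, 8.38 and 8.39 and sgPrrx1 MEF 74.3, 71.9 and 73.2. In wound-healing fibroblasts the values were 101, 102 and 105 in WT and 15.5, 14.9 and 14.9 in sgPrrx1. Every loss culture lay below every WT culture of its type, and the WT groups themselves spanned 18.7-fold. The log2 fold changes were −7.40 (standard error 0.03, adjusted p = 9.29e-12) in MMTV-CAF, −5.14 (standard error 0.11, adjusted p = 1.17e-06) in mutant MEF, −2.77 (standard error 0.03, adjusted p = 4.25e-11) in wound-healing fibroblasts and −2.08 (standard error 0.06, adjusted p = 5.55e-06) in sgPrrx1 MEF. The fall was 169-fold in MMTV-CAF, where Postn began highest, and 4.23-fold in sgPrrx1 MEF. All 7 group means differed from their neighbours in order of level, with adjusted p-values up to 3.49e-06.

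Tnc (chr4:63959785-64047015) encodes tenascin-C, a hexameric glycoprotein of wound edges and tumour stroma that modulates adhesion to fibronectin. It was at 642, 627 and 564 CPM in WT MEF, 587, 719 and 806 in mutant MEF and 279.6, 257 and 234 in sgPrrx1 MEF. WT wound-healing fibroblasts had 328, 329 and 328 and sgPrrx1 ones 134, 131 and 128, and MMTV-CAF 88.7, 88.3 and 89.7 in WT and 12.6, 14.7 and 14.6 in sgPrrx1. The 3 sgPrrx1 groups lay wholly below their WT groups, whereas the mutant MEF overlapped WT MEF. The changes were −1.26 (standard error 0.09, adjusted p = 9.65e-05), −1.33 (standard error 0.02, adjusted p = 3.3e-10) and −2.69 (standard error 0.06, adjusted p = 2.6e-09) in sgPrrx1 MEF, wound-healing fibroblasts and MMTV-CAF, and 0.18 (standard error 0.12, adjusted p = 0.241) in mutant MEF, which did not pass but was 0.29 (adjusted p = 0.0358) without mutant MEF replicate 1. Mutant and WT MEF, the highest groups, did not differ beyond their spread in the model of all 21 cultures (adjusted p = 0.0541), and MMTV-CAF, highest for Postn, were lowest for Tnc.

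Thbs1 (chr2:118111876-118127133) and Thbs2 (chr17:14665500-14694262) encode the trimeric thrombospondins, which bind CD36, CD47 and integrins and restrain angiogenesis, and thrombospondin 1 can also activate latent TGF-β. Thbs1 was at 3943, 3764 and 2828 CPM in WT MEF, 4747, 5734 and 6740.2 in mutant MEF and 1516, 1406 and 1236 in sgPrrx1 MEF. In wound-healing fibroblasts it was at 5492, 5603 and 5489 in WT and 4446, 4432 and 4341 in sgPrrx1, and in MMTV-CAF at 3678, 3568 and 3661 and 1673, 1688 and 1673. The mutant MEF all lay above WT MEF and the sgPrrx1 MEF all below, so that Thbs1 differed from WT in opposite directions with the 2 kinds of loss. On the log2 scale the change was 0.68 (standard error 0.17, adjusted p = 0.0117) in mutant MEF and −1.35 (standard error 0.15, adjusted p = 0.000574) in sgPrrx1 MEF. Thbs1 also fell in MMTV-CAF (−1.13, standard error 0.01) and by less in wound-healing fibroblasts (−0.33, standard error 0.01), with adjusted p-values of 1.99e-10 and 3.62e-08. In order of level, mutant MEF were highest and did not differ beyond their spread from WT wound-healing fibroblasts (adjusted p = 0.679), and sgPrrx1 MEF were lowest.

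Thbs2 had the widest span of the 10 genes between group means, 228-fold. It was at 354, 336 and 277 CPM in WT MEF, 90.6, 115 and 138 in mutant MEF and 18.1, 15.9 and 13.1 in sgPrrx1 MEF. MMTV-CAF had 3647, 3469 and 3607 in WT and 1347, 1370.2 and 1374 in sgPrrx1, and wound-healing fibroblasts 1686, 1720.2 and 1697 and 1780.0, 1788 and 1756. The MEF groups separated fully, with sgPrrx1 MEF lowest. Prrx1 transcript was higher in sgPrrx1 than in mutant MEF, and its part in the Thbs2 levels was not tested. Thbs2 changed on the log2 scale by −4.38 (standard error 0.16, adjusted p = 8.13e-06) in sgPrrx1 MEF, −1.52 (standard error 0.17, adjusted p = 0.000285) in mutant MEF and −1.41 (standard error 0.02, adjusted p = 3.04e-10) in MMTV-CAF. In wound-healing fibroblasts the difference was 0.06 (standard error 0.01, adjusted p = 0.00322), a 1.04-fold level that passed with the small spread of those 6 cultures and did not with the spread of all 21 (adjusted p = 0.695).

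Sparc (chr11:55394159-55420080) encodes osteonectin, a collagen-binding glycoprotein that is needed for normal collagen fibril assembly. It was at 1443, 1531 and 1349 CPM in WT MEF, 408, 560.0 and 662 in mutant MEF and 1009.9, 878 and 759 in sgPrrx1 MEF. WT and sgPrrx1 wound-healing fibroblasts had 1406, 1436 and 1378 and 363, 366 and 365, and WT and sgPrrx1 MMTV-CAF 1990.2, 1883 and 1953 and 968, 982 and 987. Every loss culture was below every WT culture of its type. The log2 fold changes were −1.95 (standard error 0.02, adjusted p = 3.71e-11) in wound-healing fibroblasts, −1.43 (standard error 0.17, adjusted p = 0.000385) in mutant MEF, −1.01 (standard error 0.02, adjusted p = 2.14e-09) in MMTV-CAF and −0.72 (standard error 0.11, adjusted p = 0.00285) in sgPrrx1 MEF. Among WT groups, MEF and wound-healing fibroblasts did not differ beyond their spread (adjusted p = 0.804). WT MMTV-CAF were higher than WT MEF by 0.43 (adjusted p = 0.00351) and than WT wound-healing fibroblasts by 0.47 (adjusted p = 0.0019). Of the loss groups, sgPrrx1 MMTV-CAF and sgPrrx1 MEF did not differ beyond their spread (adjusted p = 0.261), and sgPrrx1 wound-healing fibroblasts were lowest.

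Spp1 (chr5:104435111-104441053) encodes osteopontin, a phosphorylated ligand of αv integrins and CD44 that is made by osteoblasts, macrophages and activated fibroblasts. It rose 4.13-fold in sgPrrx1 MMTV-CAF, from 890.0, 800.5 and 832 CPM to 3480.3, 3522 and 3555, or 2.05 (standard error 0.04, adjusted p = 1.06e-09) on the log2 scale. In sgPrrx1 wound-healing fibroblasts it fell from 844, 892 and 833 to 302, 304 and 300.0 (−1.51, standard error 0.03, adjusted p = 5.93e-10). The groups did not overlap in either type and moved in opposite directions from WT levels that did not differ beyond their spread (adjusted p = 0.742). MEF had 291, 301 and 265 in WT, 452, 519 and 555 in mutant and 269, 269 and 236 in sgPrrx1 cultures, which is 0.81 (standard error 0.10, adjusted p = 0.000459) and −0.16 (standard error 0.08, adjusted p = 0.155), the latter not passing and overlapping WT. The 3 lowest groups, sgPrrx1 wound-healing fibroblasts, WT MEF and sgPrrx1 MEF, did not differ from the next in order (adjusted p = 0.306 and 0.0844). The outer 2 of these did differ, with sgPrrx1 MEF below sgPrrx1 wound-healing fibroblasts (−0.23, adjusted p = 0.00712).

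Markers of the other cells that make Spp1 were examined beside it. Of 8 macrophage markers, Ptprc, Adgre1, Aif1, Fcgr1 and Lyz2 were under 1 CPM in every group, and the list summed to 14.4 to 15.03 CPM in WT and 26.8 to 28.1 in sgPrrx1 MMTV-CAF. Cd14 alone was at 6.69 and 26.1 CPM, while Cd68 and Csf1r were under 1 CPM in sgPrrx1 but not in WT MMTV-CAF. The part of these markers in the result was not tested. Of 4 osteoblast markers, Sp7 and Bglap were under 1 CPM in every group, and the list summed to 27.5 to 48.9 CPM in WT and 57.6 to 78.1 in sgPrrx1 MMTV-CAF. In wound-healing fibroblasts, where Spp1 fell, it summed to 29.5 to 30.4 CPM in WT and 58.6 to 60.9 in sgPrrx1.

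Ctgf and Cyr61, the CCN genes best known as early targets of YAP/TAZ, both rose in wound-healing fibroblasts but not in the other comparisons: there Ctgf fell, while Cyr61 rose in mutant MEF and MMTV-CAF and did not pass in sgPrrx1 MEF. Ctgf (chr10:24595442-24598683), whose product promotes matrix synthesis in fibrosis, was at 372, 359 and 306 CPM in WT MEF, 119, 156 and 177 in mutant and 143, 128 and 116 in sgPrrx1 MEF. MMTV-CAF had 279, 271 and 275 in WT and 71.5, 72.2 and 71.6 in sgPrrx1, and wound-healing fibroblasts 288, 293 and 284 and 504, 512 and 519.8. Loss cultures were all below WT in MEF and MMTV-CAF and all above WT in wound-healing fibroblasts. Ctgf changed on the log2 scale by −1.23 (standard error 0.15, adjusted p = 0.000531) in mutant MEF, −1.44 (standard error 0.11, adjusted p = 0.000125) in sgPrrx1 MEF, −1.96 (standard error 0.02, adjusted p = 6.26e-11) in MMTV-CAF and 0.82 (standard error 0.02, adjusted p = 4.59e-09) in wound-healing fibroblasts. By level, sgPrrx1 wound-healing fibroblasts were highest and sgPrrx1 MMTV-CAF lowest, and mutant and sgPrrx1 MEF lay next to each other (adjusted p = 0.0719).

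Cyr61 (chr3:145646971-145649985), whose product binds integrins and can drive fibroblasts into senescence, was at 756, 767 and 773 CPM in WT MEF, 1367, 1418 and 1511 in mutant MEF and 787, 760.2 and 724 in sgPrrx1 MEF. Wound-healing fibroblasts had 1202, 1191 and 1187 in WT and 1453, 1465 and 1469 in sgPrrx1, and MMTV-CAF 478, 468 and 470.0 and 552, 552 and 547. Loss cultures lay above WT in 3 comparisons and overlapped WT in sgPrrx1 MEF. Cyr61 rose by 0.88 (standard error 0.07, adjusted p = 7.99e-05) in mutant MEF, 0.29 (standard error 0.01, adjusted p = 8.24e-08) in wound-healing fibroblasts and 0.20 (standard error 0.02, adjusted p = 4.82e-06) in MMTV-CAF, or 1.84-, 1.22- and 1.15-fold, and its difference in sgPrrx1 MEF was −0.03 (standard error 0.06, adjusted p = 0.724).

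Nov (chr15:54745910-54753762), the CCN gene whose product counteracts Ctgf in several fibrosis models, was at 115, 125 and 129.5 CPM in WT MEF, 15.6, 16.4 and 16.7 in mutant MEF and 20.9, 19.7 and 21.2 in sgPrrx1 MEF. MMTV-CAF had 49.7, 50.4 and 49.6 in WT and 8.69, 9.15 and 8.44 in sgPrrx1, and wound-healing fibroblasts 10.8, 12.4 and 10.8 and 10.3, 10.0 and 11.02. Nov fell in the types where WT levels were high and not, beyond the spread, in wound-healing fibroblasts, whose WT cultures were already near the level of the loss groups. The Nov changes on the log2 scale were −2.95 (standard error 0.08, adjusted p = 1.65e-06) in mutant MEF, −2.60 (standard error 0.08, adjusted p = 4.37e-06) in sgPrrx1 MEF, −2.53 (standard error 0.04, adjusted p = 4.41e-10) in MMTV-CAF and −0.12 (standard error 0.07, adjusted p = 0.144) in wound-healing fibroblasts.

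Wisp1 (chr15:66891369-66923201), a Wnt-inducible CCN gene, had nearly one level in all WT cultures: 76.0, 79.1 and 80.4 CPM in MEF, 79.3, 79.7 and 83.5 in MMTV-CAF and 79.8, 82.3 and 84.7 in wound-healing fibroblasts. No pair of WT groups differed beyond their spread (adjusted p from 0.171 to 0.613). Mutant MEF had 50.7, 55.6 and 52.5, sgPrrx1 MEF 37.2, 34.5 and 34.6, sgPrrx1 wound-healing fibroblasts 32.6, 31.8 and 31.2 and sgPrrx1 MMTV-CAF 18.4, 18.1 and 18.8. Every loss culture was below every WT culture of any type. The log2 fold changes, in that order, were −0.59 (standard error 0.07, adjusted p = 0.000418), −1.16 (standard error 0.06, adjusted p = 3.66e-05), −1.37 (standard error 0.03, adjusted p = 1.72e-09) and −2.15 (standard error 0.03, adjusted p = 3.16e-10).

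**Figure D2:**
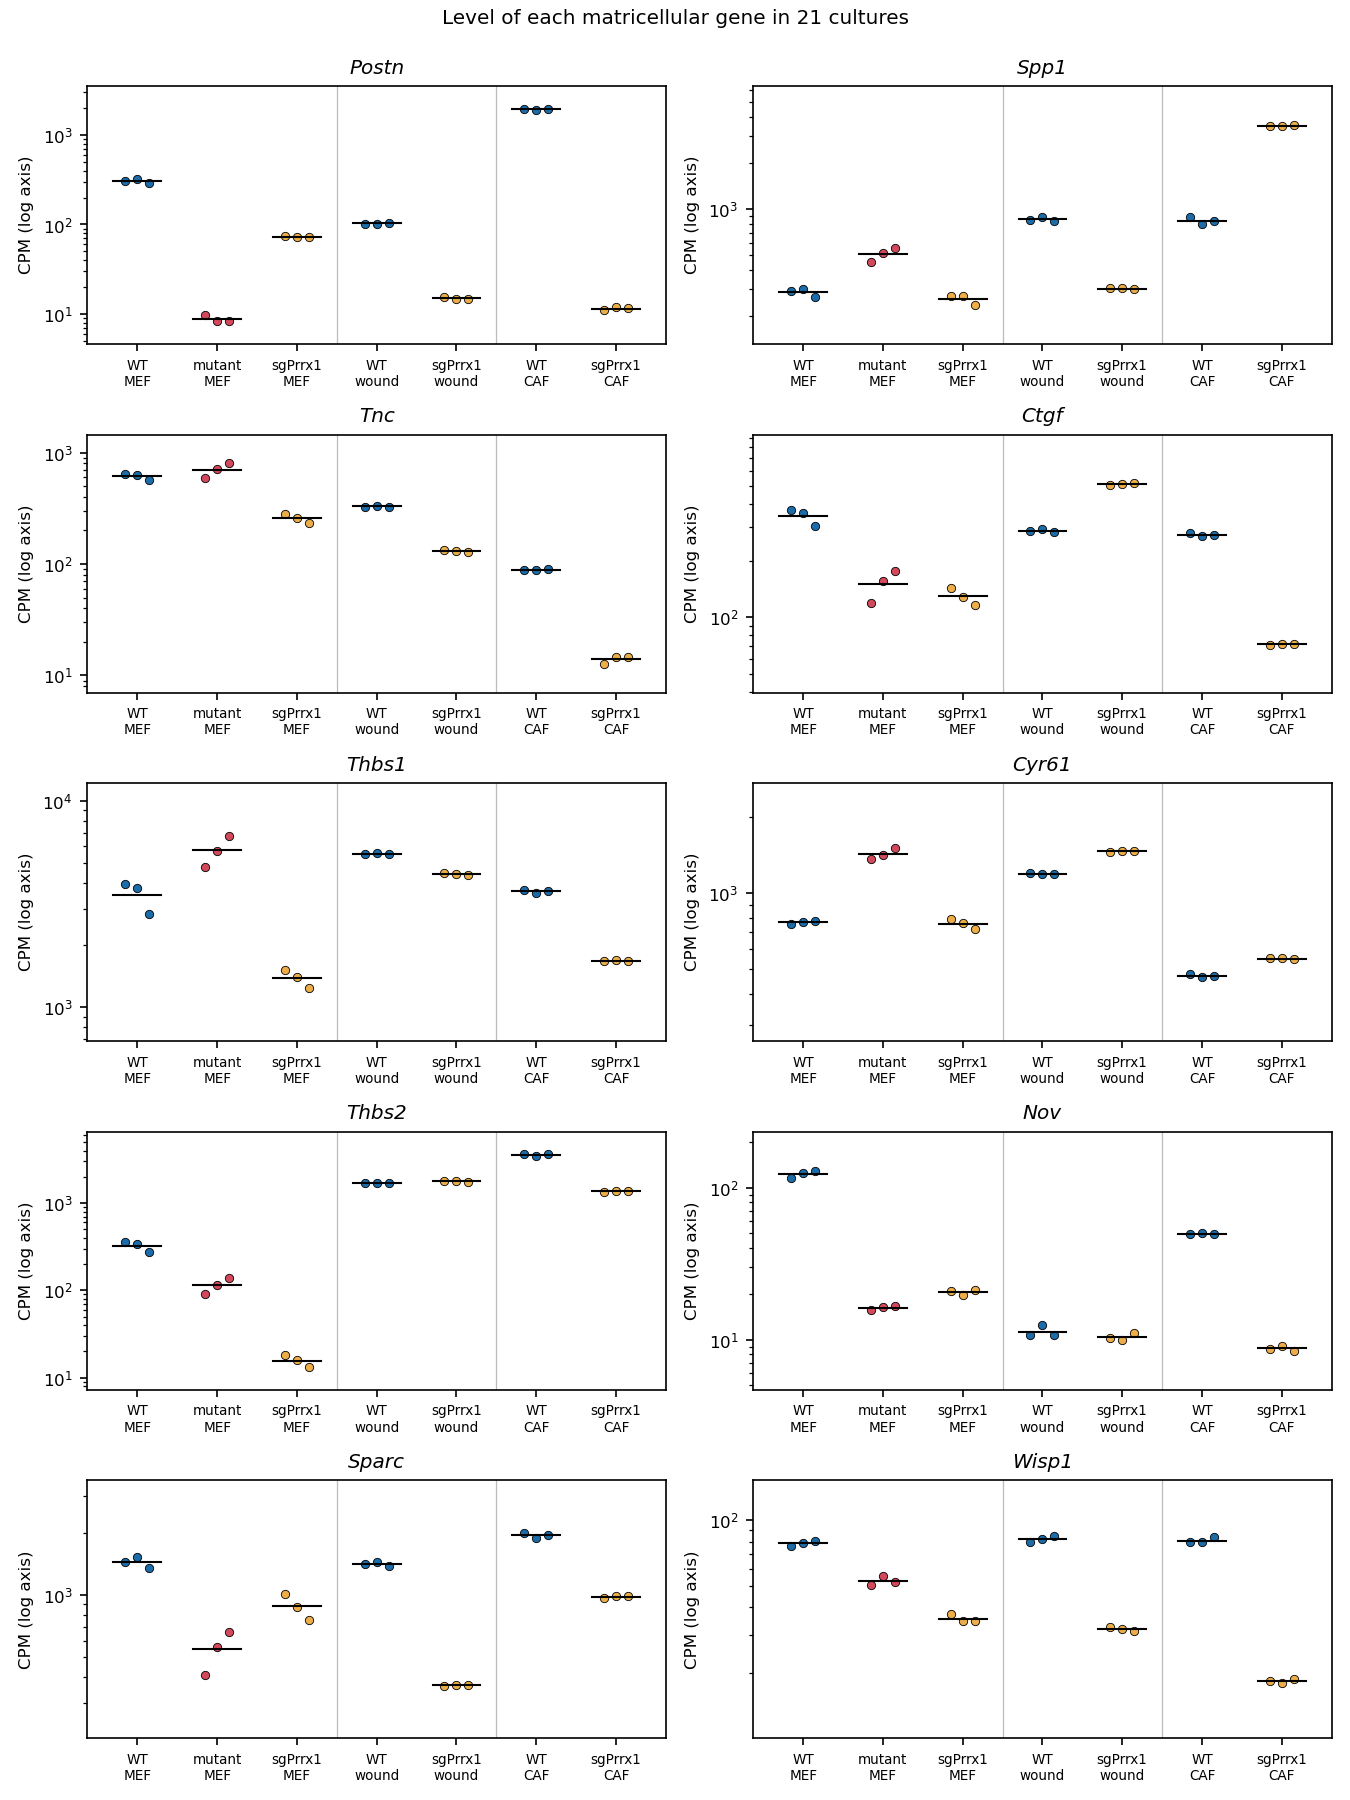
CPM of each gene in the 21 cultures on log axes (TMM scaling over all cultures), with 1 point per culture, a bar at the group mean and the 7 groups along the x axis; blue is WT, red mutant and yellow sgPrrx1. Postn falls from 1879 to 1947 CPM in WT MMTV-CAF to 11.1 to 11.9 in sgPrrx1 MMTV-CAF, Spp1 rises there, and Wisp1 starts from nearly one level in the 3 WT groups.

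Levels were compared between genes only per length, as CPM per kilobase of annotated exon and without a test. WT MEF had most Thbs1 (578 CPM per kb), then Sparc (428) and Cyr61 (377), and least Wisp1 (14.2). WT wound-healing fibroblasts had most Thbs1 (910.2) and Cyr61 (588). WT MMTV-CAF had Thbs2 (603), Thbs1 (599) and Sparc (577) at nearly one level, and in sgPrrx1 MMTV-CAF Spp1 was highest at 2135 CPM per kb, with Postn at 1.47.

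Added up, the 10 genes took 0.381% of the library in sgPrrx1 MEF and up to 1.29% in WT MMTV-CAF. The sum was 12880.2 ± 289 CPM (SD, n = 3) in WT and 8215 ± 62.7 in sgPrrx1 MMTV-CAF, and 11498 ± 143 in WT and 9011 ± 64.6 in sgPrrx1 wound-healing fibroblasts. In MEF it was 7792 ± 802 in WT, 9271 ± 1409.9 in mutant and 3814 ± 355 in sgPrrx1 cultures. The sums of the 3 sgPrrx1 groups lay below those of WT in every culture, and those of mutant and WT MEF overlapped. The 8 fibroblast markers were lower in sum as well. They summed to 40103 to 40918 CPM in WT and 19674 to 19839 in sgPrrx1 MMTV-CAF, and to 10555 to 10629.9 and 6508 to 6621 in wound-healing fibroblasts. In MEF the sums were 15459 to 16139 in WT, 10089.9 to 12709 in mutant and 11983 to 14085 in sgPrrx1 cultures. Not every marker fell by group mean. Pdgfra rose in sgPrrx1 MMTV-CAF (939 to 1835 CPM) and Vim in sgPrrx1 MEF (5075 to 6504). Fn1 rose in mutant MEF (3594 to 5204) and sgPrrx1 wound-healing fibroblasts (2297 to 3330). The other markers were lower in each loss group. The part of these markers in the result was not tested.

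**Figure D3:**
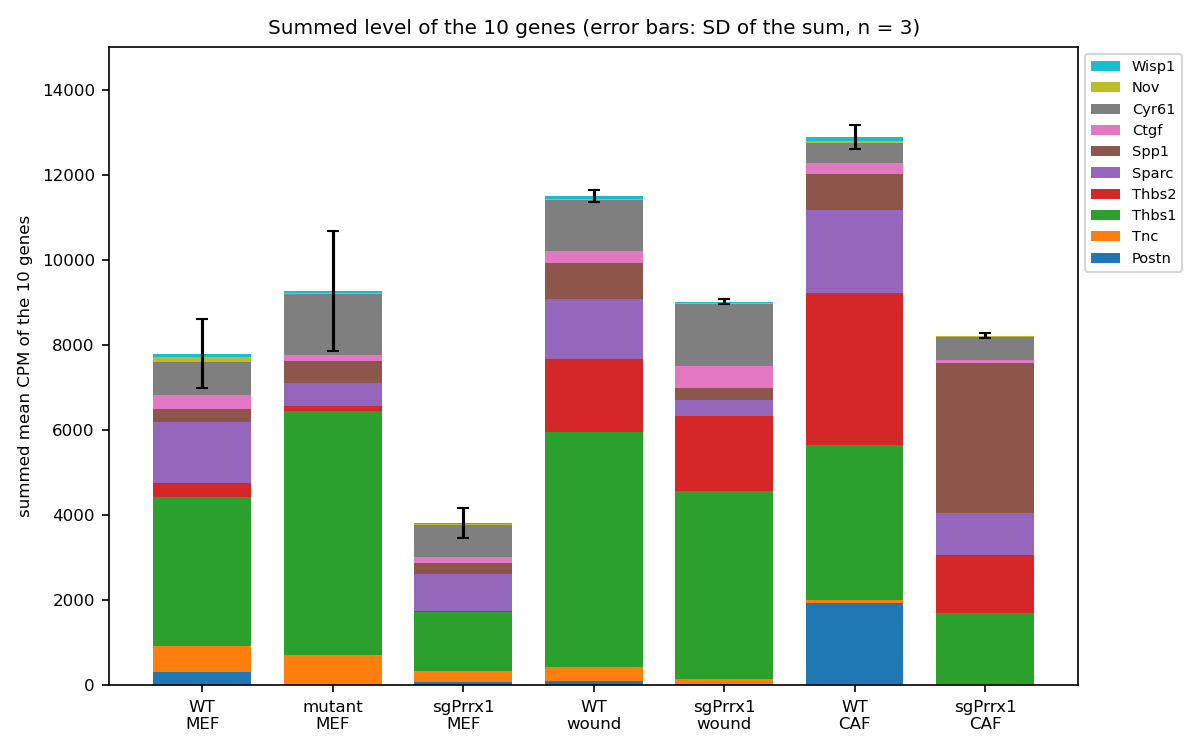
Mean CPM of the 10 genes stacked for each of the 7 groups, with the SD of the sum over 3 cultures as error bars and the axis starting at 0. Thbs1 is the largest part in MEF and wound-healing fibroblasts, Postn is visible mainly in WT MMTV-CAF, and Spp1 is the largest part in sgPrrx1 MMTV-CAF.

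The mutant and sgPrrx1 MEF share their 3 WT cultures, so the kinds of loss were compared directly. Of the 10 genes, 6 were lower and 3 higher in sgPrrx1 than in mutant MEF, where 28.4 and 27.8% of 13379 genes were (56.2% in either direction). Postn was higher in sgPrrx1 MEF, at 3.05 (standard error 0.09, adjusted p = 2.42e-06), as were Sparc at 0.71 (standard error 0.19, adjusted p = 0.0177) and Nov at 0.35 (standard error 0.07, adjusted p = 0.00443). The Sparc difference did not pass without mutant MEF replicate 2 (adjusted p = 0.0552), sgPrrx1 MEF replicate 1 (0.0563) or sgPrrx1 MEF replicate 2 (0.0512). Prrx1 itself was 5.43-fold higher in sgPrrx1 than in mutant MEF. Lower in sgPrrx1 MEF were Thbs2 (−2.86, standard error 0.19, adjusted p = 4.31e-05), Thbs1 (−2.04, standard error 0.15, adjusted p = 6.74e-05), Tnc (−1.45, standard error 0.13, adjusted p = 0.000154), Spp1 (−0.97), Cyr61 (−0.91) and Wisp1 (−0.57). Ctgf did not differ past the threshold (−0.22, standard error 0.15, adjusted p = 0.272), but was −0.37 (adjusted p = 0.0353) without mutant MEF replicate 1. The mutant allele carries a 129S strain name although all MEF are labelled C57BL/6. The study's methods describe the mutant mice as backcrossed to C57BL/6. The kind of loss, the strain of the allele and the line cannot be told apart.

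Whether the sgPrrx1 change itself differed between MEF, wound-healing fibroblasts and MMTV-CAF was tested by the interaction of cell type and sgPrrx1 in 1 model of 18 cultures. All 10 genes passed, where 80.1% of the 14972 genes tested did. The Postn fall was larger in MMTV-CAF than in MEF, a difference of −5.30 (standard error 0.06, adjusted p = 1.36e-18), and larger than in wound-healing fibroblasts, at −4.58 (standard error 0.06, adjusted p = 1.12e-17). Spp1 differed by 3.61 (standard error 0.09, adjusted p = 9.65e-15) between MMTV-CAF and wound-healing fibroblasts, and Ctgf by −2.73 (standard error 0.11, adjusted p = 2.24e-12). Thbs2 differed by 4.40 (standard error 0.14, adjusted p = 9.26e-13) between wound-healing fibroblasts and MEF, and Nov by 2.44 (standard error 0.08, adjusted p = 2.31e-12). With mutant in place of sgPrrx1 MEF the Postn difference between MMTV-CAF and MEF was −2.24 and the Thbs2 difference 1.54.

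Some pairs of cell types did not differ past the threshold. The Tnc change differed by −0.10 (standard error 0.10, adjusted p = 0.387) between wound-healing fibroblasts and MEF, the Nov change by 0.09 (standard error 0.08, adjusted p = 0.391) and the Thbs1 change by 0.24 (standard error 0.13, adjusted p = 0.139) between MMTV-CAF and MEF, and the Cyr61 change by −0.03 (standard error 0.05, adjusted p = 0.552) between MMTV-CAF and wound-healing fibroblasts. For Thbs1 this was 0.38 (adjusted p = 0.000914) without WT MEF replicate 3. The Sparc change differed by −0.27 (standard error 0.11, adjusted p = 0.0411) between MMTV-CAF and MEF, which 11 of the 18 models with 1 culture left out did not keep (adjusted p up to 0.105). With mutant in place of sgPrrx1 MEF, the Sparc difference was 0.44 and the Thbs1 difference −1.80, both past the threshold in the opposite direction, and the Tnc (−1.55, adjusted p = 3.8e-08) and Nov (0.44, adjusted p = 0.000367) differences passed. Of all genes, 60.3, 60.7 and 66.5% passed in wound-healing fibroblasts minus MEF, MMTV-CAF minus MEF and MMTV-CAF minus wound-healing fibroblasts. Prrx1 differed in the same test, by −0.62 (standard error 0.13, adjusted p = 0.00083) and −0.45 (standard error 0.13, adjusted p = 0.00849) against MEF, and its part in the differences was not tested.

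**Figure D4:**
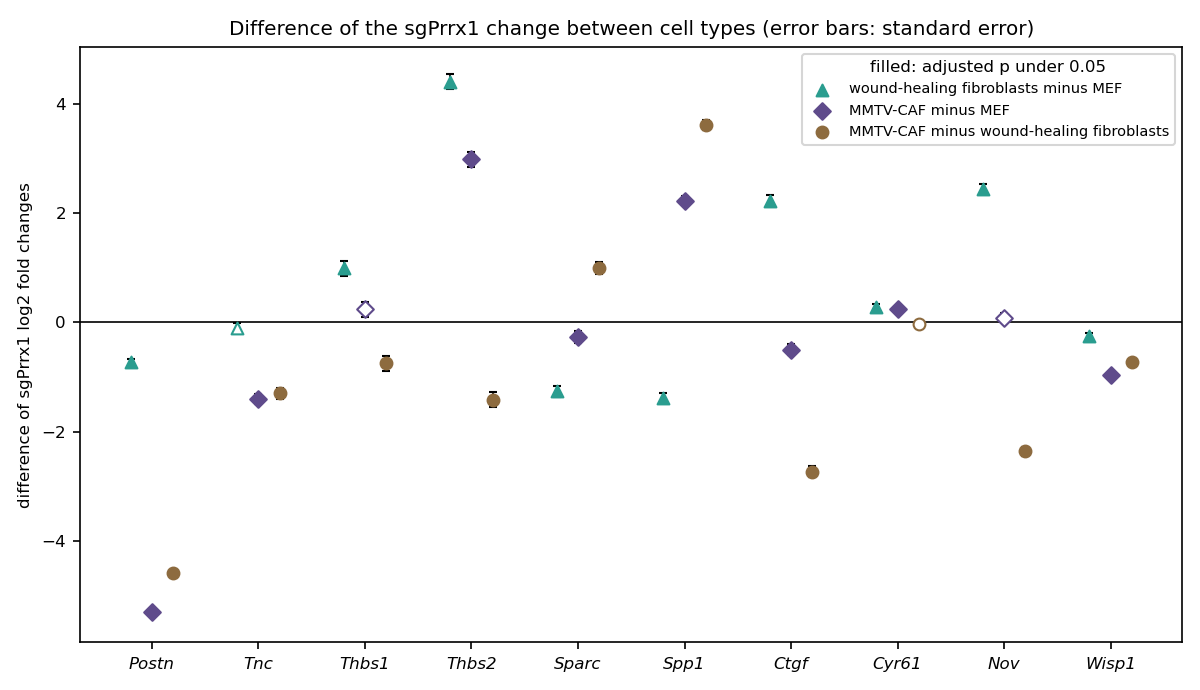
Difference of the sgPrrx1 log2 fold change between each pair of cell types for the 10 genes; bars are standard errors, and open symbols did not pass an adjusted p of 0.05. Thbs2, Spp1, Ctgf and Nov have the largest positive differences and Postn the largest negative ones.

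Among WT groups, 7 to 8 of the 10 genes differed between each pair of types, where 77.4, 76.1 and 76.8% of 15093 genes did. Postn was higher in MMTV-CAF than in MEF by 2.65 (standard error 0.05) on the log2 scale, and Thbs2 by 3.47 (0.13), while the Tnc difference was −2.78 (0.10). Nov was lower in wound-healing fibroblasts than in MEF, at −3.45 (0.07). Thbs1 did not differ between MMTV-CAF and MEF past the threshold (adjusted p = 0.702), nor Ctgf between MMTV-CAF and wound-healing fibroblasts (0.562). The Ctgf difference between wound-healing fibroblasts and MEF (adjusted p = 0.0309) did not pass without WT MEF replicate 1 or 2 or any 1 of the 3 WT wound-healing cultures (adjusted p from 0.076 to 0.172).

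Over the 7 group means, the genes most like Postn among 15093 were Rap2a (Pearson r = 0.993), Exoc7 (0.993) and Kcnk12 (0.979). Those most like Ctgf were Cpxm1 (0.988), Enpp5 (0.954) and Tnnt2 (0.954), and those most like Spp1 Hacd2 (0.988), Syngr4 (0.988) and Snx14 (0.986). These describe 7 points that share the depth and scaling of their libraries.

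The other CCN genes, thrombospondins and tenascins were mostly low in these fibroblasts. Wisp2, the CCN gene that lacks the C-terminal module, was at 236 ± 3.73 CPM (SD, n = 3) in WT and 21.7 ± 0.202 in sgPrrx1 MMTV-CAF, which on the log2 scale is −3.46 (standard error 0.02, adjusted p = 1.42e-11). It also fell in sgPrrx1 wound-healing fibroblasts, from 20.95 to 0.821 CPM (−4.68), and in sgPrrx1 MEF, from 1.79 to 0.266 (−2.76), and rose to 3.90 CPM in mutant MEF (1.10, adjusted p = 0.0018). Thbs3, a pentameric thrombospondin of cartilage and bone, was lower in all 4 comparisons, with log2 fold changes of −2.83 in mutant MEF, −1.09 in sgPrrx1 MEF, −0.12 in wound-healing fibroblasts (adjusted p = 0.0206) and −1.21 in MMTV-CAF. Tnxb, the tenascin whose loss causes a form of Ehlers-Danlos syndrome, fell in mutant MEF (−2.37) and MMTV-CAF (−1.02), rose in wound-healing fibroblasts (0.93) and was at 14.5 against 16.0 CPM in sgPrrx1 MEF (adjusted p = 0.138). Reads of Tnxb can overlap neighbouring genes, and strand was not kept. Tnn, a tenascin of bone, fell in MMTV-CAF from 3.58 to 1.13 CPM (−1.68) and rose in mutant MEF, from 0.0498 to 1.004 CPM (adjusted p = 0.00567), with 0 counts in 2 of the 3 WT cultures. Comp, Thbs4 and Tnr had group means under 1 CPM throughout, and Wisp3 had 0 counts in all 21 cultures, which allows up to 0.0431 CPM in the shallowest one (3 counts, for counting error only).

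Of 17 receptor genes, 8 were lower and 3 higher of 13 tested (all genes 30.5 and 29.4%) in mutant MEF, 7 were lower and 2 higher of 13 tested (all genes 22.8 and 20.3%) in sgPrrx1 MEF, 8 were lower and 6 higher of 14 tested (all genes 39.3 and 38.3%) in wound-healing fibroblasts and 8 were lower and 4 higher of 13 tested (all genes 41.9 and 41.2%) in MMTV-CAF, with medians of −0.40, −0.52, −0.21 and −0.33. Itga8, the α8 integrin chain that pairs with β1 to bind osteopontin and tenascin-C, and Itga9, the α9 chain that binds the same ligands, were lower in all 4. Itga9 went from 17.6 to 0.100 CPM in MMTV-CAF and Itga8 from 2.74 to 0.0242, both from low levels. Itga6, an integrin chain best known as a laminin receptor and also bound by CCN proteins, fell in mutant MEF (−2.35) and wound-healing fibroblasts (−1.16) and rose in sgPrrx1 MEF (1.82) and MMTV-CAF (0.59). Itgb3, the β3 chain of an αv integrin that binds osteopontin and periostin, fell in sgPrrx1 MEF (−1.80), mutant MEF (−0.76) and wound-healing fibroblasts (−0.72) and rose in MMTV-CAF (0.30). Itgb5, the β5 chain, rose in mutant MEF (1.29), fell in sgPrrx1 MEF (−1.07) and wound-healing fibroblasts (−0.45), and was at 0.04 in MMTV-CAF (adjusted p = 0.105). Lrp1, an endocytic receptor of thrombospondin and Ctgf, fell in MMTV-CAF from 2658 to 661 CPM (−2.03) and in mutant (−1.34) and sgPrrx1 MEF (−0.52), and rose in wound-healing fibroblasts (0.15).

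Of 16 Hippo and SRF regulators, 3 were lower and 8 higher of 16 tested (all genes 30.5 and 29.4%) in mutant MEF, 2 were lower and 4 higher of 16 tested (all genes 22.8 and 20.3%) in sgPrrx1 MEF, 4 were lower and 10 higher of 16 tested (all genes 39.3 and 38.3%) in wound-healing fibroblasts and 10 were lower and 4 higher of 16 tested (all genes 41.9 and 41.2%) in MMTV-CAF, with medians of 0.24, 0.04, 0.22 and −0.10. Tead2, a DNA-binding partner of YAP, and Lats1, a kinase that restrains YAP, were higher in all 4, with log2 fold changes from 0.19 to 0.35 and from 0.12 to 0.64. Tead4 and Mkl2, a coactivator of SRF, rose in wound-healing fibroblasts (1.03 and 0.64), where Ctgf rose, and fell in MMTV-CAF (−0.24 and −0.35), where Ctgf fell. Tead4 also rose in both MEF comparisons (0.67 and 0.91), and Mkl2 in mutant MEF (0.62), where Ctgf fell, and Mkl2 was at −0.09 in sgPrrx1 MEF (adjusted p = 0.365). Mob1a, a cofactor of the Lats kinases, rose in mutant MEF (1.02), fell in wound-healing fibroblasts (−0.25) and MMTV-CAF (−0.11), and was at 0.22 in sgPrrx1 MEF (adjusted p = 0.0982). Tead1 rose in wound-healing fibroblasts (0.85) and sgPrrx1 MEF (0.27), fell in MMTV-CAF (−0.62) and was at 0.11 in mutant MEF (adjusted p = 0.361). Lats2 rose in wound-healing fibroblasts (0.35), fell in MMTV-CAF (−0.90) and sgPrrx1 MEF (−0.40) and was at −0.04 in mutant MEF (adjusted p = 0.714). Tead3 fell in mutant MEF (−1.60), sgPrrx1 MEF (−0.40) and MMTV-CAF (−1.36) and was at 0.23 (adjusted p = 0.361) in wound-healing fibroblasts. The part of these genes in the Ctgf changes was not tested.

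Of 20 other YAP/TAZ targets, 10 were lower and 6 higher of 20 tested (all genes 30.5 and 29.4%) in mutant MEF, 9 were lower and 2 higher of 20 tested (all genes 22.8 and 20.3%) in sgPrrx1 MEF, 9 were lower and 10 higher of 20 tested (all genes 39.3 and 38.3%) in wound-healing fibroblasts and 14 were lower and 4 higher of 20 tested (all genes 41.9 and 41.2%) in MMTV-CAF, with medians of −0.30, −0.12, 0.05 and −0.39. Crim1, F3, which encodes tissue factor, and Rbms3 were lower in all 4, with F3 at −1.77 in MMTV-CAF and −1.99 in wound-healing fibroblasts. Ankrd1, a target often read beside Ctgf and Cyr61, rose in wound-healing fibroblasts from 382 to 721 CPM (0.91), fell in mutant MEF (−1.24) and MMTV-CAF (−0.24), and was at 264 against 229 CPM in sgPrrx1 MEF (adjusted p = 0.298). It is outside the rule for named genes and was chosen after its values were seen. Nt5e, the ecto-5'-nucleotidase CD73, rose in mutant MEF from 0.205 to 32.01 CPM (7.28, standard error 0.19, adjusted p = 1.65e-06), in MMTV-CAF from 3.21 to 46.1 (3.82) and in wound-healing fibroblasts from 0.812 to 1.24 (0.61), and fell to 0.0197 CPM in sgPrrx1 MEF (adjusted p = 0.0275). Fjx1 rose in MMTV-CAF (2.29) and sgPrrx1 MEF (0.76) and fell in mutant MEF (−0.42) and wound-healing fibroblasts (−0.68). Nuak2, a kinase of the AMPK family, fell in wound-healing fibroblasts (−2.10) and MMTV-CAF (−1.34) and did not pass in either MEF comparison (adjusted p = 0.718 and 0.998). Igfbp3, an insulin-like growth factor binding protein, went from 87.3 to 0.00893 CPM in MMTV-CAF, and also fell in mutant MEF (−4.12) and wound-healing fibroblasts (−1.09), and rose in sgPrrx1 MEF (0.32, adjusted p = 0.0492).

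Of 11 genes of TGF-β signalling, 5 were lower and 4 higher of 11 tested (all genes 30.5 and 29.4%) in mutant MEF, 6 were lower and 1 higher of 11 tested (all genes 22.8 and 20.3%) in sgPrrx1 MEF, 5 were lower and 5 higher of 11 tested (all genes 39.3 and 38.3%) in wound-healing fibroblasts and 5 were lower and 3 higher of 11 tested (all genes 41.9 and 41.2%) in MMTV-CAF, with medians of −0.07, −0.31, 0.08 and −0.49. In wound-healing fibroblasts Tgfbr2, the type II receptor, fell (−2.10) and Smad7, an inhibitor that the pathway itself induces, rose (2.10), whereas Smad7 fell in MMTV-CAF (−1.40). Tgfbr2 fell in sgPrrx1 MEF (−0.75) and mutant MEF (−0.32, adjusted p = 0.0161) as well. The ligand Tgfb2, which is also in the list of YAP/TAZ targets, rose in mutant MEF (2.10) and fell in sgPrrx1 MEF (−1.06) and wound-healing fibroblasts (−1.55), with 0.04 in MMTV-CAF (adjusted p = 0.274). Skil, an inhibitor of SMAD activity, rose in mutant MEF (1.27), wound-healing fibroblasts (0.62) and MMTV-CAF (0.37) and was at −0.15 in sgPrrx1 MEF (adjusted p = 0.606). Tgfbr1, the type I receptor, rose in MMTV-CAF (1.28), fell in mutant MEF (−0.81) and wound-healing fibroblasts (−0.39) and was at 0.02 in sgPrrx1 MEF (adjusted p = 0.929). The ligand Tgfb3 fell in the 3 sgPrrx1 groups, most in MMTV-CAF (−1.15), and rose in mutant MEF (0.38). Smad2, a receptor-activated SMAD, rose in sgPrrx1 MEF (0.66) and fell in MMTV-CAF (−0.76).

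**Figure D5:**
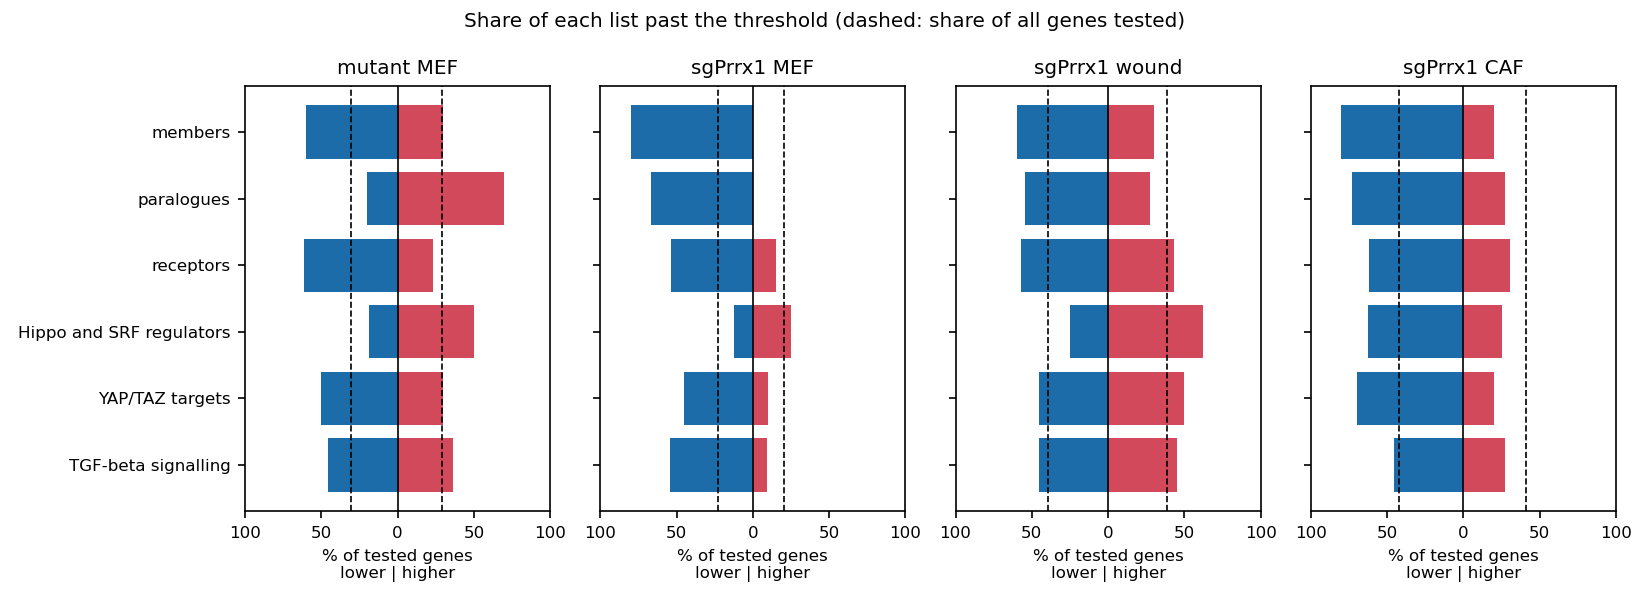
Share of the tested genes of each list that passed an adjusted p of 0.05, lower to the left (blue) and higher to the right (red), in the 4 comparisons with WT; dashed lines are the shares of all genes tested. The 10 genes (members) have no higher call in sgPrrx1 MEF and reach 80% lower in sgPrrx1 MEF and MMTV-CAF, with 22.8 and 41.9% of all genes lower.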

How the data were processed

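RNA of 21 mouse fibroblast cultures was sequenced in 100 bp paired-end mode without strand. Reads were trimmed with Trimmomatic and aligned to mm10 with STAR, and the authors deposited whole-number HTSeq counts per gene in 3 tables, 1 per cell type. The study's methods name a batch correction by ComBat-seq after the human alignment and do not say whether it covers these mouse counts. Of counts from 1 to 20, 52.1 to 58.2% were even, by group, and the cause was not tested. The annotation is not given in the sources used here. Columns of wound-healing cultures were assigned by elimination. Genes kept by filterByExpr in edgeR 4.0.16 (R 4.3.3) were scaled by TMM and tested by the quasi-likelihood test between the 6 cultures of a comparison, with Benjamini-Hochberg adjustment over all genes tested and a threshold of 0.05. The standard error is the log2 fold change divided by the root of F. CPM values use TMM over all 21 cultures. An exact permutation test of 3 against 3 cannot go below 0.1. The 10 genes and the lists were chosen with earlier results of these data known. From each list, the text names genes past the threshold in the same direction in all 4 comparisons and the 3 largest changes in each comparison, and for Postn, Ctgf and Spp1 the 3 most alike genes. The alternatives were DESeq2 1.42.0, other scalings and filters, a 2-fold minimum, a replicate block and each culture left out. Scripts were tested on simulated data with 200 changed genes. No promoter sequence of Ctgf, Thbs1, Nov or Wisp1 was used.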

Additional observations from a re-analysis of the deposited data

Results flagged for a closer look

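The sgPrrx1 change differed between MEF, wound-healing fibroblasts and MMTV-CAF for each of the 10 genes, by the interaction test of edgeR over 18 cultures. The adjusted p-values were 2.48e-18 for Postn, 2.8e-09 for Tnc, 1.44e-05 for Thbs1, 5.99e-13 for Thbs2 and 5.71e-08 for Sparc. They were 2.5e-14 for Spp1, 3.45e-12 for Ctgf, 5.29e-05 for Cyr61, 4.57e-13 for Nov and 7.68e-10 for Wisp1. Since 80.1% of all 14972 genes tested passed this test, passing it is no particular feature of these genes. Spp1 and Ctgf are those that passed in opposite directions in different sgPrrx1 groups: Spp1 rose in MMTV-CAF and fell in wound-healing fibroblasts, and Ctgf rose in wound-healing fibroblasts and fell in the other two. Thbs2 also passed in opposite directions, by 0.06 in wound-healing fibroblasts and −4.38 in MEF, though its rise did not pass with the spread of all 21 cultures (adjusted p = 0.695). The sgPrrx1 fall of Prrx1 itself was smaller in MEF than in the other types, and its part was not tested.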

How the results depend on the processing

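Of 580 values for the 10 genes in the 4 comparisons with WT under other settings, none that passed changed direction, 12 lost the threshold, 10 of them by the 2-fold minimum, and 2 gained it. With a 2-fold minimum, 3283 genes (5 of the 10) passed in mutant MEF, 1411 in sgPrrx1 MEF, 2179 (5) in wound-healing fibroblasts, 3377 in MMTV-CAF and 2838 (4) in sgPrrx1 against mutant MEF. Leaving out 1 culture gave 6647 to 8177, 3830 to 6340, 10341 to 10520, 11233 to 11474 and 6215 to 7579 genes in the same order, and 9 to 10, 8, 9, 10 and 8 to 10 of the 10. The interaction gave 11690 to 12275, with 10 of the 10 each time. With all 21 cultures in 1 model, chosen after seeing the data, Thbs2 in wound-healing fibroblasts did not pass (0.06, adjusted p = 0.695).

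With mutant in place of sgPrrx1 MEF, 6 differences between cell types changed sign: in wound-healing fibroblasts minus MEF, Postn 2.33, Thbs1 −1.05 and Cyr61 −0.63, and in MMTV-CAF minus MEF, Thbs1 −1.80, Sparc 0.44 and Cyr61 −0.66; the cause was not tested. The Thbs2 difference between MMTV-CAF and MEF then did not pass (0.12, adjusted p = 0.534), and Tnc (−1.55) in wound-healing fibroblasts and Nov (0.44) in MMTV-CAF minus MEF did. With library totals alone, Wisp1 differed between WT wound-healing fibroblasts and WT MEF (0.13, adjusted p = 0.0159).

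Deviations of cultures with the same number correlated at −0.355 to 0.203, with no comparison over 0.1 in every pair or best matched by number throughout, so they share only a number. A replicate block gave 6457, 6629, 10518, 11320 and 5268 genes in the order above and 11873 for the interaction. With it, Thbs1 in mutant MEF (adjusted p = 0.0504) and Sparc in sgPrrx1 against mutant MEF (0.0729) did not pass, and Spp1 in sgPrrx1 MEF did (0.0343).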

Other observations

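The matrix-binding relatives of Sparc and of periostin differed from group to group. Smoc2 was at 30.7 ± 1.62 CPM (SD, n = 3) in WT MEF, 125 ± 11.2 in mutant MEF and 0.141 ± 0.0868 in sgPrrx1 MEF. It fell in MMTV-CAF from 1.68 to 0.0493 CPM and rose in wound-healing fibroblasts from 1.26 to 5.23. Sparcl1, the closest relative of Sparc, rose in MMTV-CAF from 15.1 to 29.0 CPM (0.93) and fell in wound-healing fibroblasts from 0.450 CPM to 0 counts in all 3 sgPrrx1 cultures (adjusted p = 0.000102). Tgfbi, the closest relative of Postn, fell in sgPrrx1 MEF from 11.6 to 0.263 CPM (−5.48) and in wound-healing fibroblasts from 2.75 to 0.777 (−1.82), and rose in MMTV-CAF from 81.4 to 201 (1.28), where Postn fell. In mutant MEF Tgfbi rose to 15.7 CPM (0.41, adjusted p = 0.0209). Smoc1 rose in wound-healing fibroblasts from 0.116 to 2.05 CPM (4.12) and fell in MMTV-CAF from 86.3 to 51.9 (−0.75). Of the 20 paralogues listed, 2 were lower and 7 higher of 10 tested (all genes 30.5 and 29.4%) in mutant MEF, 6 were lower and 0 higher of 9 tested (all genes 22.8 and 20.3%) in sgPrrx1 MEF, 6 were lower and 3 higher of 11 tested (all genes 39.3 and 38.3%) in wound-healing fibroblasts and 8 were lower and 3 higher of 11 tested (all genes 41.9 and 41.2%) in MMTV-CAF. Kdr, an endothelial marker, was at 290.3 CPM in WT and 142 in sgPrrx1 wound-healing fibroblasts, while Pecam1 and Tie1 were at 0 there.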
